A study of Arabidopsis thaliana with 6 samples.

Results

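ZAT and AZF factors are C2H2 zinc finger proteins of Arabidopsis thaliana, and 8 of their genes were followed here, namely ZAT5, ZAT6, ZAT10, ZAT11, ZAT12, AZF1, AZF2 and AZF3. They were taken by locus identifier from the 33555 genes of the deposited tables, and all 8 had a value above 0 in every library. The study asked how leaf transcripts responded to a repeated dehydration stress, and mRNA of rosette leaves was sequenced in 6 libraries, with 2 replicates for each of 3 conditions, which were watered (W), a first air-drying (S1) and the third air-drying (S3). Each air-drying lasted 2 h, with 22 h of rehydration between one and the next. By the study's methods, S1 and S3 leaves were taken during the stress and not after recovery. The plants grew in soil at 22 °C under 12 h of light. Before any stress they were taken out of the soil and kept in humid chambers overnight, and plants in that state gave the W level. By their labels all groups were of one background, with Col-0 named as the ecotype but WS entered as the genotype. The methods of the study name Col-0, and the WS entry was left as it stands.

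Proteins of this family bind DNA through a pair of zinc fingers, each of which carries in its helix the plant-specific motif named QALGGH after its amino acids. Most of them also hold a short repression motif of the EAR type near the C terminus, through which corepressors of the TOPLESS class and histone deacetylases are recruited, and they are therefore best known as repressors. Several are induced by salt, cold, drought, wounding, intense light or abscisic acid, the hormone of water deficit, and ZAT6 and ZAT10 are phosphorylated by stress-activated MAP kinases.

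The part of the gene that defines the family is shown for each member, because it encodes the motif by which the family is recognised. Each line holds 36 bases of the coding strand from the RefSeq TAIR10.1 genome, 5′ to 3′, with the 18 bases that encode QALGGH in capitals.
ZAT10 finger 1: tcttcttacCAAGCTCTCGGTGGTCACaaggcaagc
ZAT6 finger 1: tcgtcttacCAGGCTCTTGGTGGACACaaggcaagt
AZF2 finger 1: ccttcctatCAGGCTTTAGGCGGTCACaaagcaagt
AZF1 finger 1: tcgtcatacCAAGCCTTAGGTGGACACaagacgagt
AZF3 finger 1: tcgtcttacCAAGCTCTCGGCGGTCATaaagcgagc
ZAT12 finger 1: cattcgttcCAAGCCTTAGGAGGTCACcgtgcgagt
ZAT5 finger 1: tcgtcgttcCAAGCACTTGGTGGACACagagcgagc
ZAT11 finger 1: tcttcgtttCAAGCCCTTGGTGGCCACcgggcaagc
ZAT6 finger 2: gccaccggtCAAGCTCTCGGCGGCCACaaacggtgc
AZF3 finger 2: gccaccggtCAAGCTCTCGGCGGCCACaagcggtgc
Every member held 2 such helices on a single exon, and the 16 helices were written in 13 different forms of 18 bases. ZAT6 and AZF3 used the same form in the second finger, where the flanking bases were also nearly the same. Over the whole transcripts, the longest identical run between any pair of members was 39 bases, between AZF1 and AZF2, followed by 32 bases between AZF3 and ZAT6.

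The values are FPKM, fragment counts divided by transcript length and by the mapped fragments of the library, which allow levels to be compared between genes. A gene was counted as higher or lower in a comparison where the adjusted p of limma (Benjamini-Hochberg over 24759 genes) was at most 0.05, the log2 fold change of FPKM + 1 was at least 1 in size, and the mean FPKM of at least 1 condition was above 0.359. With these criteria 6 of the 8 members were higher in S1 than in W and none was lower, where 13.7% of all genes tested were higher and 12.1% lower. At an unadjusted p under 0.05 with no criterion on the fold, 7 members were higher and 0 lower, and 59.1% of all genes passed that in either direction. At the third stress 1 member was lower than in S1 and none was higher, where 6.71% of all genes were lower and 5.55% higher, and at an unadjusted p under 0.05 in the limma fit 3 members were lower and 2 higher, beside 43.1% of all genes in either direction. In S3 4 members were still higher than in W and none was lower, against 15.3% and 14.4% of all genes, and at an unadjusted p under 0.05 in the limma fit 6 were higher and 0 lower, beside 61.8% of all genes in either direction. The median log2 fold change of the 8 members was 2.335 in S1/W, against 0.003 over all genes tested. In S3/S1 it was -0.16, against 0.00 over all genes, and in S3/W 1.825, against 0.011 over all genes. S1/W and S3/W share the W libraries and S1/W and S3/S1 share the S1 libraries, so the 3 comparisons are not independent.

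**Figure D1:**
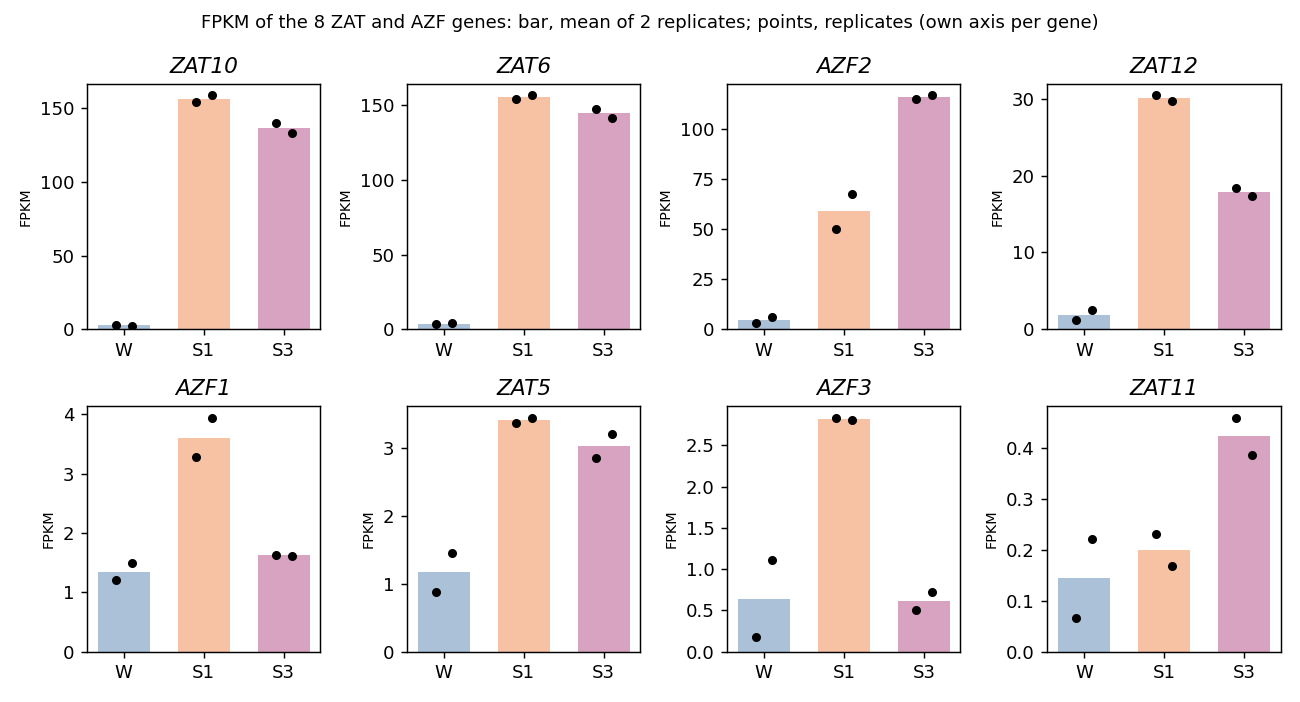
FPKM (vertical axis, own scale per gene) of the 8 ZAT and AZF genes in W, S1 and S3, with bars for the mean of 2 replicates and points for the replicates. ZAT10 and ZAT6 reached 133 to 159 FPKM in the stressed libraries, AZF2 was highest in S3, ZAT12 was lower in S3 than in S1, and the lower 4 genes stayed below 4 FPKM.

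The libraries summed to between 891200 and 974000 FPKM. The leaf label was checked with markers. The summed FPKM of 5 mesophyll markers was between 11310 and 30170 in every library, although RBCS1A and CAB1 were listed at 0 in both W libraries. Such a 0 can be a failed estimate, and since both were high in S1 the sums are not comparable between W and the stressed conditions. RCA, RBCS3B and GAPA, which were above 0 in W, averaged 4901, 8317 and 1691 FPKM there. They averaged 1669, 2880 and 532 FPKM in S1, and 2348, 288 and 338 FPKM in S3. RBCS1A and CAB1 averaged 7801 and 13353 FPKM in S1, and 1562 and 8034 FPKM in S3. Of 4 root markers, RHD6 and PHT1;1 were listed at 0 in all libraries and COBL9 reached at most 0.04 FPKM, while PYK10 had 0.08 and 0.29 FPKM in W, 0.95 and 3.15 FPKM in S1 and 26.0 and 22.3 FPKM in S3. The 4 guard cell markers summed to 118 and 142 FPKM in W, 62.6 and 49.3 FPKM in S1 and 28.8 and 32.5 FPKM in S3, but did not move together. GC1, which made up most of the sum in W, averaged 107 FPKM in W, 14.7 FPKM in S1 and 9.20 FPKM in S3. MYB60 averaged 9.52, 1.26 and 0.92 FPKM in W, S1 and S3, and FAMA 8.41, 6.31 and 5.59 FPKM. Only KAT1 was above W under stress, with means of 5.38 FPKM in W, 33.6 FPKM in S1 and 15.0 FPKM in S3. The 5 flower and seed markers summed to at most 1.36 FPKM. These shifts moved together with the stress, and their part in the results was not tested. In leaves as a bulk sample, more cells of a type and more RNA per cell cannot be told apart. W libraries were read at a longer read length than S1 and S3 libraries, so in comparisons with W the read length and the stress cannot be told apart.

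ZAT10 and ZAT6 had the highest levels of the 8 genes under stress. ZAT10 (AT1G27730, chr1:9648021-9649323, minus strand), also known as the salt tolerance zinc finger STZ, represses transcription in reporter assays. Its level was 3.23 and 2.01 FPKM in W, 154 and 159 FPKM in S1 and 140.3 and 133 FPKM in S3. Both stressed conditions were thus far above W without overlap, at 59.8 times the W mean in S1. The log2 fold change of S1/W was 5.46 (SE 0.17, limma adjusted p = 7.65e-05), the 126th highest among the 24759 genes. For S3/S1 it was -0.19, with a 95% interval from -0.63 to 0.25 (limma adjusted p = 0.457). The interval does not reach a change of 2-fold in either direction, but it does not cover a difference in scaling between S1 and S3 values. S3/W was 5.27 (SE 0.17, limma adjusted p = 8.59e-05).

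ZAT6 (AT5G04340, chr5:1216058-1217362, minus strand), which is known for roles in phosphate homeostasis, root growth and cadmium tolerance, followed a nearly identical course. It was measured at 3.28 and 3.88 FPKM in W, 155 and 157 FPKM in S1 and 148 and 142 FPKM in S3. The S1 values of ZAT6 and ZAT10 overlapped, so their order in S1 cannot be given, whereas in S3 both values of ZAT6 were above both of ZAT10. ZAT6 rose in S1 by a log2 fold change of 5.10 over W (SE 0.09, limma adjusted p = 3.38e-05). The S3/S1 change was -0.10 with a 95% interval from -0.34 to 0.13 (limma adjusted p = 0.451), the narrowest interval among the 4 abundant members. S3/W was 4.996 (SE 0.09, limma adjusted p = 3.87e-05). Together these genes supplied 77.4% and 74.6% of the summed FPKM of the 8 members in S1 and 48.5% and 31.0% in W. Their profiles lay 0.615 apart as a Euclidean distance on the log2 scale over the 6 libraries, the smallest of the 28 distances between members.

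AZF2 was the only member with a higher mean in S3 than in S1 at levels above 1 FPKM. The gene (AT3G19580, chr3:6802903-6804296, minus strand) is responsive to abscisic acid and salt, and its protein represses auxin-responsive SAUR genes. Its level was 3.34 and 6.33 FPKM in W, 50.1 and 67.7 FPKM in S1 and 115 and 117 FPKM in S3. No value of one condition overlapped with another, and the S1 replicates were further apart than those of S3. AZF2 rose in S1 with a log2 fold change of 3.39 over W (SE 0.28, limma adjusted p = 0.000628) and was 4.37 above W in S3 (SE 0.28, limma adjusted p = 0.000266). The S3/S1 change of 0.98 (95% interval 0.26 to 1.70, limma adjusted p = 0.0528) fell just outside both the fold and the p criterion. Its S3 mean was 197% of the S1 mean. The share of AZF2 in the summed FPKM of the 8 members was 24.9% and 33.3% in W, 12.5% and 16.0% in S1 and 26.9% and 28.1% in S3.

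ZAT12 (AT5G59820, chr5:24102814-24103794, plus strand) acts in the response to reactive oxygen and intense light and is linked to cytosolic ascorbate peroxidase. Its values were 1.24 and 2.52 FPKM in W, 30.5 and 29.7 FPKM in S1 and 18.4 and 17.3 FPKM in S3. All 3 conditions were separate, with S3 between W and S1. The S1/W change of 3.47 (SE 0.22, limma adjusted p = 0.000323) and the S3/W change of 2.75 (SE 0.22, limma adjusted p = 0.000478) passed the criteria. The S3 mean was 59.4% of the S1 mean, but the S3/S1 change of -0.72 (95% interval -1.29 to -0.15, limma adjusted p = 0.0654) did not pass.

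**Figure D2:**
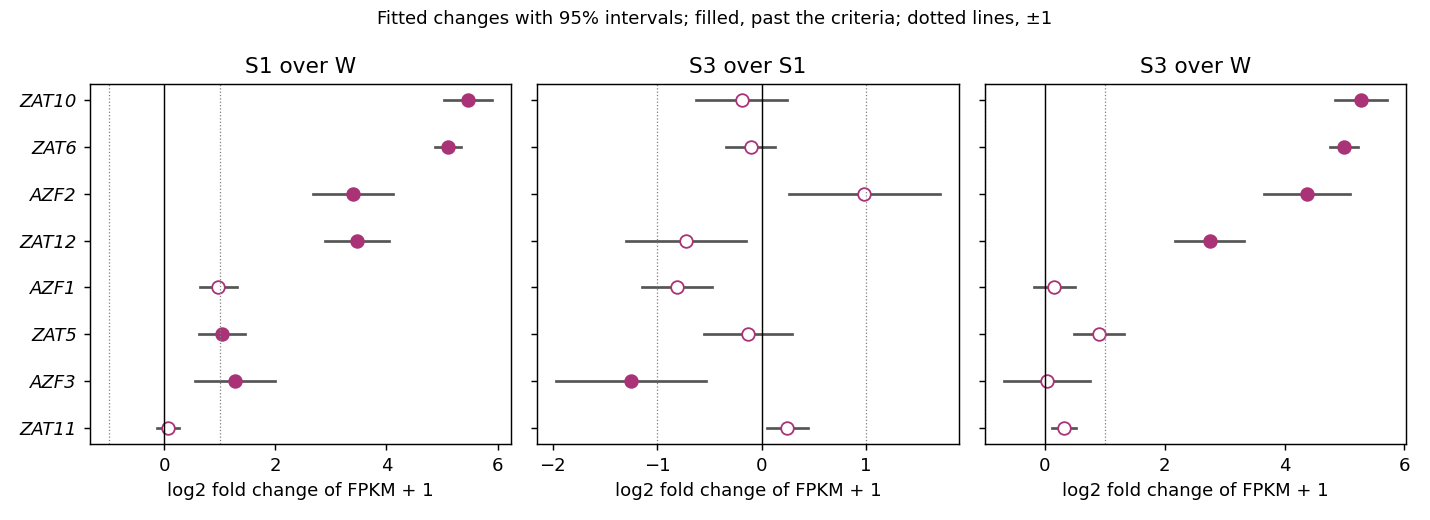
Log2 fold change of FPKM + 1 (horizontal axis) of each member in S1 over W, S3 over S1 and S3 over W, with 95% intervals of the limma fit as lines and filled symbols for changes past the criteria. ZAT10, ZAT6, AZF2 and ZAT12 were between 2.75 and 5.46 in both comparisons with W, and in S3 over S1 AZF3 at -1.25 passed while AZF2 at 0.98 and AZF1 at -0.81 did not.

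The other 4 members stayed below 4 FPKM in every library. AZF1 (AT5G67450, chr5:26918765-26920179, minus strand), which like AZF2 responds to abscisic acid and salt, had 1.21 and 1.49 FPKM in W, 3.27 and 3.94 FPKM in S1 and 1.63 and 1.61 FPKM in S3. S1 was above both other conditions without overlap. The S1/W change of 0.97 (SE 0.13, limma adjusted p = 0.00283) and the S3/S1 change of -0.81 (SE 0.13, limma adjusted p = 0.0104) had adjusted p within the criterion and a fold change under it. The added 1 FPKM lowers these fold changes. The S1 mean itself was 2.67 times the W mean, and the S3 mean was 44.9% of the S1 mean. S3/W was 0.16, with a 95% interval from -0.18 to 0.50 (limma adjusted p = 0.357). AZF1 thus had its highest values in S1, whereas AZF2, with which it shares its longest run of bases, had them in S3.

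AZF3 (AT5G43170, chr5:17330945-17331646, minus strand), another salt-responsive member of the AZF group, had 0.18 and 1.11 FPKM in W, 2.84 and 2.80 FPKM in S1 and 0.50 and 0.72 FPKM in S3. The S1 values were alike and above all others, while S3 and W overlapped. AZF3 rose in S1 with a log2 fold change of 1.28 over W (SE 0.28, limma adjusted p = 0.0144) and fell by 1.25 in S3 relative to S1 (SE 0.28, limma adjusted p = 0.0265), and S3/W was 0.03 (limma adjusted p = 0.959). Without any 1 of the S1 or S3 replicates the S3/S1 change no longer passed (limma adjusted p between 0.110 and 0.155). The S1/W change of AZF3 was 0.86 without W replicate 1, and without either S1 replicate its adjusted p was above the criterion. The level is also uncertain because 408 of the 702 transcript bases of AZF3 are covered by QWRF9 (AT5G43160, chr5:17329275-17331352) on the opposite strand. QWRF9 had 2.48 and 3.02 FPKM in W, 1.29 and 0.90 FPKM in S1 and 0.69 and 0.72 FPKM in S3, a course other than that of AZF3. The library preparation given in the study's methods has no step that marks strand and the mapping used default settings, so reads from the shared stretch cannot be assigned to AZF3 or QWRF9 by strand.

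ZAT5 (AT2G28200, chr2:12023940-12025370, plus strand) had 0.88 and 1.45 FPKM in W, 3.37 and 3.44 FPKM in S1 and 2.84 and 3.20 FPKM in S3. Both stressed conditions were above W. The S1/W change of 1.04 (SE 0.16, limma adjusted p = 0.00477) passed the fold criterion closely and S3/W at 0.90 (SE 0.16, limma adjusted p = 0.00678) missed it. Without the added 1 FPKM, the S3 mean was 2.59 times the W mean. S3/S1 was -0.13 with a 95% interval from -0.55 to 0.29 (limma adjusted p = 0.601). The S1/W change of ZAT5 no longer passed at 0.97 once all libraries were brought to an equal sum, or at 0.85 without W replicate 1.

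ZAT11 (AT2G37430, chr2:15706285-15707224, plus strand), known for a role in nickel tolerance, was close to the limit of these libraries. It had 0.07 and 0.22 FPKM in W, 0.23 and 0.17 FPKM in S1 and 0.46 and 0.39 FPKM in S3, which corresponds to about 1 to 15 reads per library. W and S1 overlapped, and both S3 values were above all others. The S1/W change of 0.07 (limma adjusted p = 0.488), the S3/S1 change of 0.25 (limma adjusted p = 0.0649) and the S3/W change of 0.32 (limma adjusted p = 0.0179) did not pass, and the added 1 FPKM understates changes at this level.

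In terms of response classes, written as the sign of S1/W followed by that of S3/S1, ZAT5, ZAT6, ZAT10, ZAT12 and AZF2 were [+/=], AZF3 was [+/-] and AZF1 and ZAT11 were [=/=]. The sign = marks a change that did not pass the criteria and not an equal level. The study, which wrote its classes in this way, took the fold change from Cuffdiff, whereas here 1 FPKM was added to each value. These classes can therefore differ from the study's for genes of low level. With 0.1 FPKM added instead, AZF1 was [+/-] and AZF3 was [+/=]. The intervals were narrow for ZAT6, ZAT10 and ZAT5, while those of AZF2 and ZAT12 lay on opposite sides of 0. The summed FPKM of all 8 members was 13.4 and 19.0 in W, 399 and 423 in S1 and 427 and 415 in S3. In W the order of the means was AZF2, ZAT6, ZAT10, ZAT12, AZF1, ZAT5, AZF3 and ZAT11, and only ZAT6 and ZAT10 did not overlap with each other among neighbours. In S3 the order was ZAT6, ZAT10, AZF2, ZAT12, ZAT5, AZF1, AZF3 and ZAT11, with no overlap between neighbours.

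The members were compared with other genes that hold the motif. By the letters QALGGH in the translated RefSeq coding sequences, 60 genes of the tables held the motif, of which 52 are not members. A match of letters is not proof of a zinc finger, since CPK18, a calcium-dependent protein kinase gene, was among them. Of these 52 genes 36 had a value above 0, and in S1/W 1 was higher and 5 were lower, with a median log2 fold change of -0.004, where 13.7% of all genes were higher and 12.1% lower. At an unadjusted limma p under 0.05, 4 of the 36 were higher and 7 lower, beside 59.1% of all genes in either direction. Only 5 of the 36 averaged 5 FPKM or more in a condition, against 4 of the 8 members. The added 1 FPKM understates changes of genes near 0, so the medians of both sets are not on an equal footing. With 0.1 FPKM added instead, 3 of the 36 were higher and 6 lower, beside 4337 higher and 4011 lower among all 24759 genes. Among the 18 genes with a pair of copies like the members, 15 were tested, and 1 of the 15 averaged 5 FPKM or more. AT3G53600 was the only one of them that was higher in S1, with 0 and 0.11 FPKM in W, 12.1 and 15.2 FPKM in S1 and 1.90 and 1.91 FPKM in S3. Its log2 fold change was 3.78 for S1/W (limma adjusted p = 0.000116) and -2.32 for S3/S1 (limma adjusted p = 0.00101), and it was not fully back at the W level, with 1.46 for S3/W (limma adjusted p = 0.000987). AT3G49930 was lower, with 3.13 and 3.65 FPKM in W, 0.24 and 0.22 FPKM in S1 and 0.11 and 0.15 FPKM in S3.

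**Figure D3:**
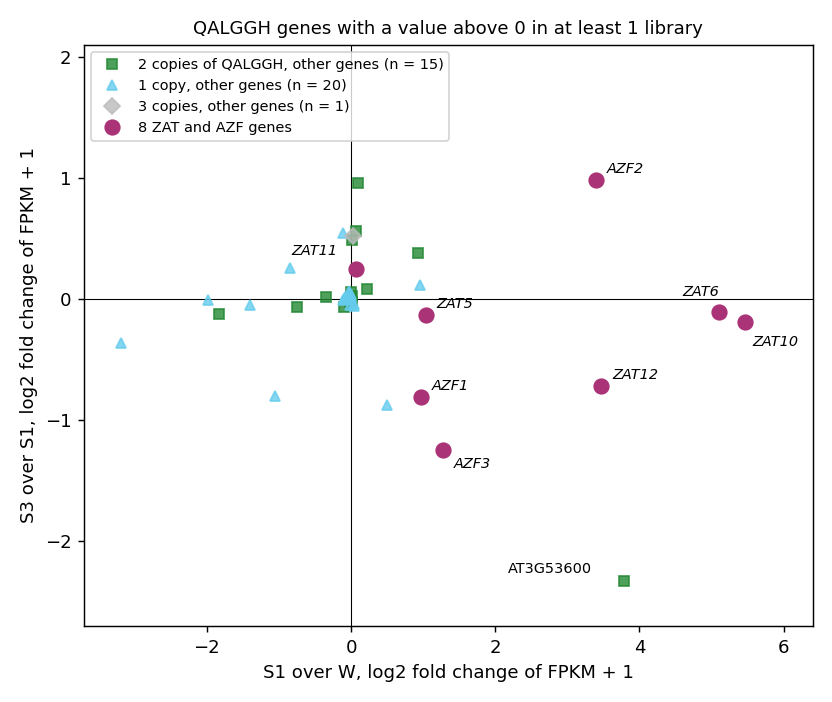
Log2 fold change of FPKM + 1 in S1 over W (horizontal axis) and S3 over S1 (vertical axis) for the 8 members (circles) and 36 other genes with 1, 2 or 3 copies of QALGGH. Most other genes lie near 0 on both axes, and 5 of the 36 averaged 5 FPKM or more in a condition. AT3G53600 lies at 3.78 and -2.32. Both axes use the S1 libraries, so their relation is not read as a result.

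Genes with a single copy of QALGGH numbered 33, of which 20 were tested. None was higher in S1/W and 4 were lower, against 13.7% and 12.1% of all genes. At an unadjusted limma p under 0.05, 1 was higher and 5 were lower, beside 59.1% of all genes in either direction. The 4 lower genes included GIS and ZFP8, which act in trichome formation under gibberellin and cytokinin. ZFP8 had 35.6 and 33.7 FPKM in W, 7.31 and 8.86 FPKM in S1 and 8.33 and 7.65 FPKM in S3, a log2 fold change of -1.98 for S1/W (limma adjusted p = 0.000272). The fall of ZFP8 was as large in S3, with -1.99 for S3/W.

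The sequence upstream of the 3 members highest in S3 is printed because they carry most of the response. Each line gives the 250 bases before the annotated transcript start on the strand of the gene, from RefSeq TAIR10.1, with the searched motifs in capitals, where GTCAA is TTGAC read on the other strand.
ZAT6, chr5:1217363-1217612, minus strand: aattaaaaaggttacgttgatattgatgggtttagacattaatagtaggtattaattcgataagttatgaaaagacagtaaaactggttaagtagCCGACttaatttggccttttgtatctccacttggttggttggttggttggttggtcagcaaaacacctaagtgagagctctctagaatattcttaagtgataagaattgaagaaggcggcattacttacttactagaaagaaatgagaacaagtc
ZAT10, chr1:9649324-9649573, minus strand: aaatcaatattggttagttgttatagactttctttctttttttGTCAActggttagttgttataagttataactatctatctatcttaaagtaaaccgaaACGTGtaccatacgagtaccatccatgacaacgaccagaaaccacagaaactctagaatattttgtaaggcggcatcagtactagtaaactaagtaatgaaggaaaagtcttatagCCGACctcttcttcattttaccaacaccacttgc
AZF2, chr3:6804297-6804546, minus strand: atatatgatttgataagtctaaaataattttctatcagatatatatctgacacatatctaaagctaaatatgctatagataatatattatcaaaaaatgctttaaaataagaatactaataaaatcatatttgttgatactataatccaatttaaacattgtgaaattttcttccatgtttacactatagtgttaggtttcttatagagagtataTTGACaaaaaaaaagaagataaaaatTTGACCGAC
On both strands, 5 sets of letters were searched. CCGAC, the core of the dehydration-responsive element, was found in these 3 members and in none of the other 5, and 11.9% of 26692 promoters of this length hold it. It starts 155 bases before the ZAT6 transcript, 34 before ZAT10 and 5 before AZF2, where it overlaps TTGAC, the core of the W-box. The abscisic acid response element core ACGTG was found in ZAT10 alone and is held by 23.1% of promoters. TTGAC was found in 6 members, all but ZAT6 and AZF3, and in 45% of promoters. Neither CACGTG, the G-box, which contains ACGTG and is held by 6.59% of promoters, nor CGCGTT, the rapid stress response element, held by 2.59%, was found in any member. These matches are letters in a window and do not show that a factor binds there.

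Genes whose level ran most like that of a member were sought among 14372 genes that averaged 5 FPKM or more in any condition, by the Euclidean distance between centred log2 profiles over the 6 libraries. The nearest to ZAT6 were AT4G39670 at a distance of 0.259, LEA14, a late embryogenesis abundant protein, at 0.312 and ABI2, a protein phosphatase 2C of abscisic acid signalling, at 0.441. ZAT10 was nearest to EXPA16, an expansin, at 0.541, AT4G39670 at 0.574 and BAM1, a beta-amylase, at 0.613. The closest match of all was AT1G27200 to AZF2 at 0.147, with means of 4.51 FPKM in W, 54.6 FPKM in S1 and 105 FPKM in S3. For ZAT12 the nearest were AT3G55290 at 0.27, AT4G22592 at 0.272 and AT2G18193 at 0.277, all with a mean in S3 between those of S1 and W, as ZAT12 had. Such likeness follows from the choice by distance and is not a separate result.

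Corepressors through which such factors are known to act were also looked at. Of 8 genes for TOPLESS-type corepressors and associated histone deacetylase components none passed the criteria in S1/W, with 3 higher and 1 lower at an unadjusted limma p under 0.05 (59.1% of all genes in either direction), and the median log2 fold change was 0.07. TPR1 was the only one to pass in S3/S1, where 5.55% of all genes were higher and 6.71% lower, with a log2 fold change of 1.13 (limma adjusted p = 0.002). It had 14.3 ± 0.22 FPKM in W, 7.57 ± 0.07 FPKM in S1 and 17.8 ± 1.46 FPKM in S3 (SD, n = 2 each). Its S1/W change of -0.84 and its S3/W change of 0.29 did not pass. The median of the 8 genes was 0.355 in S3/S1 and 0.361 in S3/W. At an unadjusted limma p under 0.05, 5 were higher and 1 lower in S3/S1, and 5 higher and 0 lower in S3/W. All genes gave 43.1% and 61.8% in either direction. TPL averaged 13.4 FPKM in W, 13.8 FPKM in S1 and 25.3 FPKM in S3. Its S3/S1 change of 0.82 (limma adjusted p = 0.00711) missed the fold criterion, and TPR3 had -0.67. The deacetylase HDA19 had 39.3 ± 2.79 FPKM in W, 38.2 ± 0.50 FPKM in S1 and 38.1 ± 1.51 FPKM in S3 (SD, n = 2 each).

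Among 9 genes of the MAP kinase module, 1 was higher and 2 were lower in S1 than in W, against 13.7% higher and 12.1% lower of all genes. At an unadjusted limma p under 0.05, 3 of the 9 were higher and 5 lower, beside 59.1% of all genes in either direction. MKK9 rose with a log2 fold change of 2.76 (limma adjusted p = 0.000163), with means of 40.2 FPKM in S1 and 5.04 FPKM in W. MKK1 fell by 2.23 (limma adjusted p = 0.000141) and MPK3 by 1.71 (limma adjusted p = 0.000703). The transcript of MPK6, a kinase known to act on ZAT6 and ZAT10, had 41.6 ± 1.93 FPKM in S1 and 27.3 ± 0.08 FPKM in W (SD, n = 2 each), with a log2 fold change of 0.59 that did not reach the fold criterion.

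Of 13 genes that genetic studies have placed downstream of ZAT or AZF factors, 2 were higher and 4 were lower in S1/W, against 13.7% and 12.1% of all genes. In S3/W 2 were higher and 4 lower, against 15.3% and 14.4% of all genes, and 1 was higher without S3 replicate 1. The auxin-responsive SAUR63, of the class that AZF2 represses, had 24.0 ± 5.93 FPKM in W, 1.09 ± 0.54 FPKM in S1 and 0.33 ± 0.08 FPKM in S3 (SD, n = 2 each), and fell by 3.59 in S1/W (limma adjusted p = 0.000417). CBF2 and CBF3, cold-response activators, fell by 1.52 and 1.14 in S1/W (limma adjusted p = 0.00352 and 0.00183), and CBF3 rose by 1.73 in S3/S1 (limma adjusted p = 0.00155). LOX3, a lipoxygenase of jasmonate synthesis, rose by 5.31 in S1/W (limma adjusted p = 3.38e-05) and fell by 4.57 in S3/S1 (limma adjusted p = 0.000258). RD29A, a widely used dehydration marker, had 191 ± 23.2 FPKM in W, 3623 ± 52.6 FPKM in S1 and 2263 ± 281 FPKM in S3 (SD, n = 2 each). APX1, the cytosolic ascorbate peroxidase linked to ZAT12, had 622 ± 10.5 FPKM in S1 and 639 ± 41.4 FPKM in W (SD, n = 2 each), with a log2 fold change of -0.04. Among the genes for glutathione and phytochelatin synthesis linked to ZAT6, PCS1 fell by 1.17 in S1/W (limma adjusted p = 0.000509), and GSH1 and GSH2 had changes of -0.03 and 0.07 that did not pass. PCS2 had 0.52 in S1/W, which did not pass, and rose by 1.08 in S3/W (limma adjusted p = 0.00511).

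**Figure D4:**
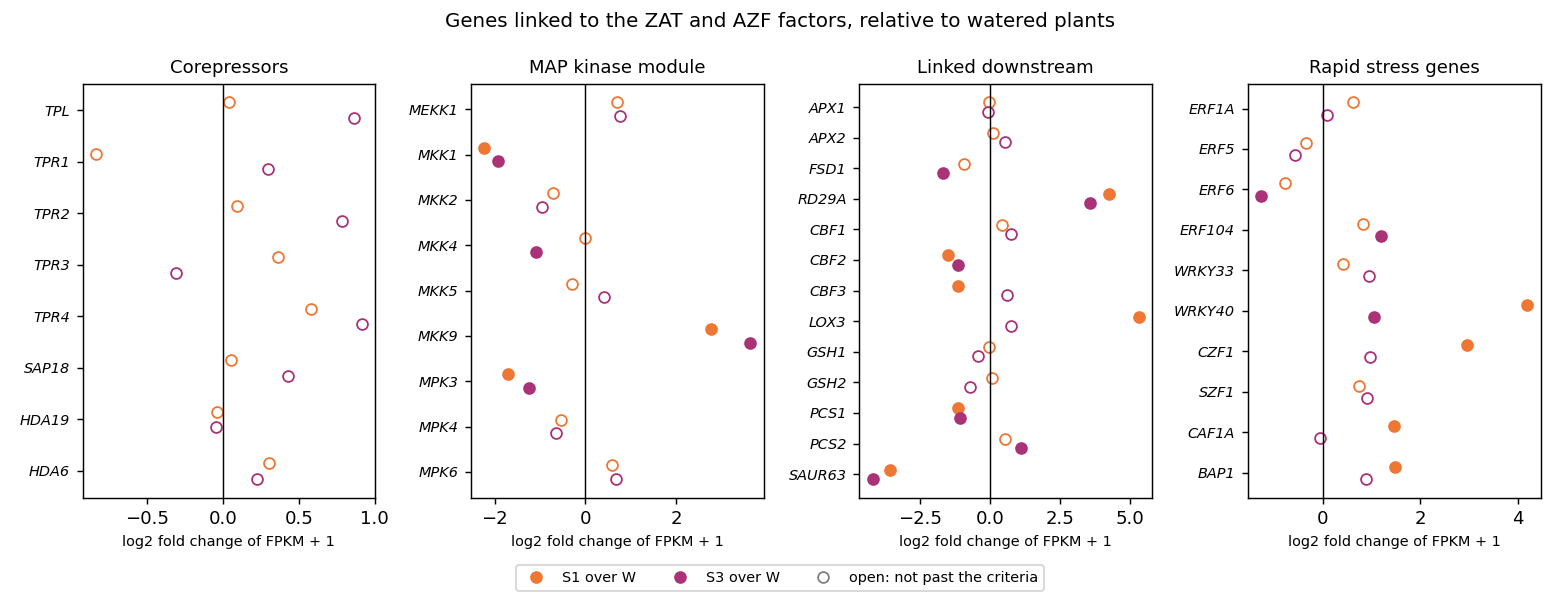
Log2 fold change of FPKM + 1 (horizontal axis, own scale per panel) in S1 over W and S3 over W for corepressors, the MAP kinase module, genes placed downstream of ZAT and AZF factors, and rapid stress genes, with filled symbols for changes past the criteria. No corepressor is filled, SAUR63 is lower in both (-3.59 and -4.21), and WRKY40 lies at 4.18 in S1 and 1.06 in S3.

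Other regulators that are typically induced together with ZAT10 and ZAT12 within minutes of wounding or cold were set beside the members. Of 10 such genes 4 were higher in S1/W and none was lower, against 13.7% and 12.1% of all genes. In S3/S1 3 were lower and none was higher, against 6.71% and 5.55% of all genes. At an unadjusted limma p under 0.05, 8 were higher and 1 lower in S1/W, and 4 were lower and 1 higher in S3/S1, where all genes gave 59.1% and 43.1% in either direction. WRKY40 had 0.83 ± 0.29 FPKM in W, 32.6 ± 9.05 FPKM in S1 and 2.80 ± 0.61 FPKM in S3 (SD, n = 2 each), and fell by 3.13 in S3/S1 (limma adjusted p = 0.00165). CZF1, a CCCH zinc finger gene, had 8.85 ± 0.77 FPKM in W, 74.9 ± 1.08 FPKM in S1 and 18.3 ± 0.0011 FPKM in S3 (SD, n = 2 each), and fell by 1.98 in S3/S1 (limma adjusted p = 0.000497). CAF1A, a deadenylase gene, fell by 1.51 in S3/S1 (limma adjusted p = 0.0115). The other 7 genes did not pass in S3/S1 and went both ways. WRKY33, ERF104 and SZF1 had changes of 0.54, 0.37 and 0.16, and ERF1A, ERF5, ERF6 and BAP1 of -0.53, -0.22, -0.50 and -0.60. ZAT6 and ZAT10, with S3/S1 changes of -0.10 and -0.19, did not pass in either direction, nor did ZAT12 at -0.72, and the median of the 10 genes was -0.52. The difference between genes was not tested.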

How the data were processed

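Per the labels and the paper's methods, the authors mapped reads to TAIR10 with TopHat and made the deposited FPKM values per gene and replicate with Cuffdiff. Column names show that S3 values came from another Cuffdiff run than W and S1 values, and whether both were scaled together is not given in the sources used here. The labels name 2 replicates per condition, which the methods describe as biological. Read counts were not used, so single values carry no counting interval.

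FPKM were used as deposited. One limma 3.58.1 model (R 4.3.3) with condition as its term and a variance trend was fitted to log2(FPKM + 1) of all 6 libraries over the 24759 genes above 0 in at least 1 library, and the fit was tested on simulated data. Prior and residual degrees of freedom were 2.07 and 3. A mean FPKM above the 25th percentile (0.359) in 1 condition was required. Cuffdiff, which needs the reads, was not run.

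Genes named are the 8 members, genes of the partner and marker lists, all genes with QALGGH in the RefSeq translation (97.8% of identifiers matched) and the 3 nearest profiles of each member with at least 5 FPKM in a condition. The overlapping gene QWRF9 was named after its values were seen. Members and lists were chosen with earlier results of these data known. Numbers of reads were approximated from FPKM, transcript length and the mapped reads the study lists. Figures were drawn with matplotlib 3.10.9. Alternatives were another pseudocount, filters, scalings, a fit without variance trend (added after seeing the data), the replicate number as a block and leaving out each replicate.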

Additional observations from a re-analysis of the deposited data

How the results depend on the processing

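Over the 8 members and their alternatives, 85 of 95 values for S1/W, 88 of 95 for S3/S1 and 88 of 95 for S3/W kept their direction and their side of the criteria. ZAT6, ZAT10, ZAT12 and AZF2 were above W in S1 and S3 under every alternative run, with S1/W between 5.01 and 5.41 for ZAT6 and between 5.22 and 5.89 for ZAT10. The S3/S1 change of AZF2 was between 0.77 and 1.19 (limma adjusted p 0.0182 to 0.249) and that of ZAT12 between -0.76 and -0.64 (limma adjusted p 0.00932 to 0.241).

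Without the fold criterion, 2 members were lower in S3/S1 (AZF1 and AZF3), and over all genes 6617 were higher and 6165 lower in S1/W, 3778 and 3865 in S3/S1, and 7169 and 6485 in S3/W. Leaving out any 1 replicate of S1 or S3 left 0 members lower in S3/S1. The sign changed in 3 cases, namely ZAT11 in S1/W to -0.026 without W replicate 1, and AZF3 in S3/W to -0.39 without W replicate 1 and to -0.07 without S3 replicate 2 (range -0.39 to 0.45 over replicates left out, and -0.026 to 0.17 for ZAT11 in S1/W). AZF3 also lost its S1/W call without S1 replicate 1 or 2, and with a pseudocount of 0.1 its S3/S1 change of -2.05 had a limma adjusted p of 0.0699. With that pseudocount AZF1 passed in S1/W (1.36) and S3/S1 (-1.10), and ZAT5 (1.34) and ZAT11 (1.17) passed in S3/W. The causes were not tested. Without W replicate 1 the S1/W change of ZAT5 was 0.85.

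Deviations of replicates with the same number were correlated at 0.17 for S1 and W, 0.02 for S3 and W and -0.01 for S3 and S1 (14373 genes), so the numbers are not taken to pair samples. With the replicate number as a block, 3394 genes were higher and 2985 lower in S1/W and the members' calls stayed the same. Among genes of at least 5 FPKM the median shift was 0.09 in S1/W and 0.14 in S3/W, relative to which the members' changes can be read.

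Precision is limited by 2 replicates per condition. Depth limits ZAT11 and AZF3 most, at about 1 to 15 and 3 to 76 reads per library.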
